A study of Mus musculus with 10 samples.

Results

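The expression of 10 genes of secreted matrix glycoproteins was followed in all 5 groups of an in vitro differentiation of mouse embryonic stem cells (ESCs): Fn1, Sparc, Sparcl1, Thbs1, Thbs2, Tnc, Postn, Tgfbi, Bgn and Dcn. They were chosen by name, as the rows of the deposited count table with these symbols, and are 10 of its 52459 symbols. The cells were wild-type ESCs of 1 C57BL/6 line, ES-Bruce4, differentiated towards neuromesodermal progenitors, the posterior embryonic cells that give rise to spinal cord and trunk mesoderm. There were 2 libraries in each of 5 groups. D2 cells, labelled as epiblast stem cells derived from ESCs, were collected on day 2, and D3, D6 and D7 cells, labelled as neuromesodermal progenitors, on days 3, 6 and 7. D7G cells were also collected on day 7 and carry the same progenitor label, after 24 h with human Gdf11 at 50 ng/ml from day 6. Every group had received human basic Fgf (bFgf) at 10 ng/ml from day 0, and CHIR99021, an inhibitor of Gsk3 that activates Wnt signalling, was added at 5 µM on day 2. The labels do not say whether D2 cells were collected before that addition, nor whether a given culture had B27 with vitamin A or without it. Before differentiation the ESCs grew in serum and LIF on embryo fibroblast feeders, which were depleted once. The labels also do not say whether the 2 libraries of a group came from separate cultures, so a p-value here reflects how far these libraries spread, a spread that could be technical.

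Matricellular proteins are secreted into the extracellular matrix, where they act less as building blocks than as regulators of how cells attach, migrate and respond to growth factors. Tenascin-C, the thrombospondins, periostin and Sparc belong to this class, while fibronectin forms fibrils on which other matrix proteins assemble, and biglycan and decorin are small leucine-rich proteoglycans that bind collagen. In embryos these genes are best known in mesenchyme, basement membranes and migrating cells, and several are widely described as responsive to Tgf-β family ligands, the family to which Gdf11 belongs.

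The libraries held 31078950 to 33418015 counts. Replicates correlated at 0.995 to 0.996 (Pearson's r of log2 values across genes), against at most 0.990 between groups. Values below are CPM, counts divided by library size after scaling by edgeR's trimmed mean of M-values (TMM), given per library or as mean ± SD (n = 2). Log2 fold changes carry their standard error (±). A gene is called when its Benjamini-Hochberg adjusted p from edgeR's quasi-likelihood test over 18818 genes is under 0.05. All 10 genes passed the filter on low counts. Markers of the labelled cell types were present. The summed level of 9 neuromesodermal progenitor markers was 1169 to 1185 CPM in D3 libraries, against 170 to 177 CPM in D2 libraries, and it was 654 to 668 CPM on D6. On day 7 it was 353 to 363 CPM with Gdf11 and 440 to 444 CPM without. Sox2 alone averaged 163 CPM on D2, 193 CPM in D7G and 232 CPM on D7, most of the sum in these groups. The summed level of 6 epiblast markers was 571 to 584 CPM in D3 libraries, against 2329 CPM in both D2 libraries. Dnmt3b alone averaged 1475 CPM on D2 and 156 CPM on D3, most of that difference. Of the 6 markers, 5 were lower on D3 than on D2, while Nanog was higher (159 CPM on D3 and 139 CPM on D2). Pou5f1 and Nanog still averaged 128 and 88.2 CPM on D7, and 161 and 111 CPM in D7G. RNA came from whole dishes, so fewer cells of a type and less RNA per cell cannot be told apart.

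The matrix glycoprotein genes followed no single course. Only Tnc, Thbs1, Thbs2 and Fn1 were both lowest on D6 and highest in D7G by group mean, and the top place of Fn1 was not separated from D3. D6 was the lowest group for 7 of them (Tnc, Thbs1, Thbs2, Bgn, Dcn, Postn and Fn1), D2 for Sparc and Sparcl1, and D3 for Tgfbi. D7G was the highest group for 6 (Tnc, Thbs1, Thbs2, Sparc, Tgfbi and Fn1), D3 for Bgn, Dcn and Postn, and D6 for Sparcl1. These places are by group mean. The lowest place of Bgn and Dcn on D6 was not separated from D7, nor the highest place of Bgn on D3 from D2. With library totals in place of TMM the order of groups was the same for 9 of the 10 genes, and for Fn1 the D7G mean then lay below the D3 mean. The genes together took 0.255 to 0.258% of all counts in D7G libraries, the largest share of any group, and 0.112 to 0.125% in D6 libraries, the smallest. Fn1 and Sparc alone made up most of these counts in every library, from 74.02% in D7G replicate 2 to 85.6% in D6 replicate 2. The joint share therefore mostly reflects Fn1 and Sparc.

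**Figure D1:**
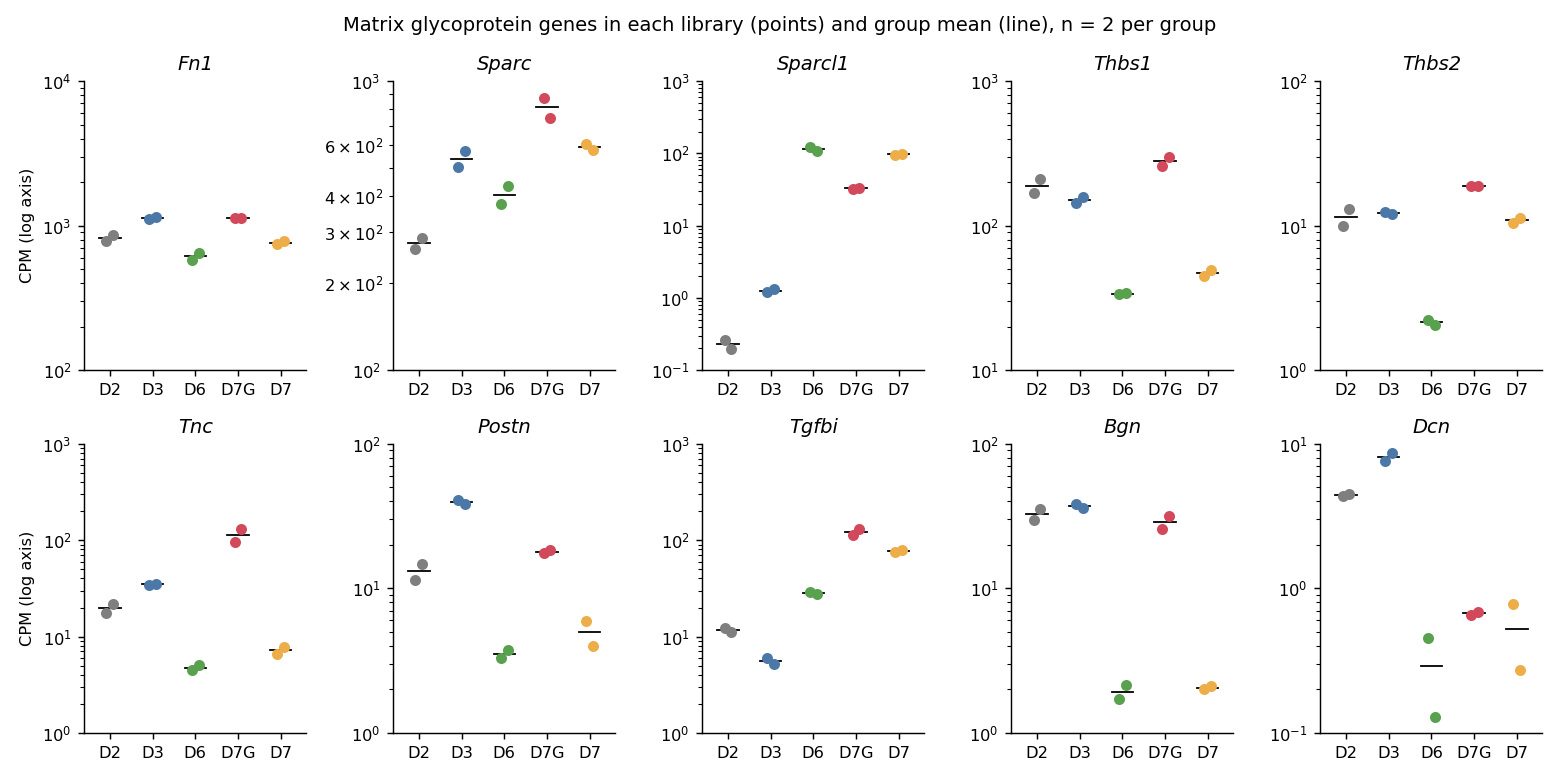
CPM (log axes, which differ between panels) of each gene in each library (points, n = 2 per group) with the group mean (line). The means of Tnc, Thbs1, Thbs2, Bgn, Dcn, Postn and Fn1 are lowest on D6, where the libraries of Bgn and Dcn overlap those of D7. Sparcl1 is highest on D6 (108 and 121 CPM), and Tnc reaches 95.6 and 130 CPM in D7G, against 6.64 and 7.71 CPM in D7.

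The promoter windows below belong to 4 genes that were lower on D6 than on D3 and higher in D7G than in D7, by differing amounts. The windows are the 250 bases before the RefSeq start site on GRCm38.p6, read on the strand of the gene. They are shown for genes whose RefSeq start lies within 2 bases of the first base of the counted gene. Thbs1, Fn1 and Sparc changed in the same directions but had no window that meets this rule. Tnc lies on the minus strand with its window at chr4:64047016-64047265, and Thbs2, also on the minus strand, has its window at chr17:14694263-14694512. Bgn lies on the plus strand with its window at chrX:73483351-73483600, and Postn, also on the plus strand, at chr3:54360857-54361106. Capitals mark CAGAC on either strand (GTCTG where it lies on the other one), the sequence known as the Smad-binding element of Tgf-β family signalling.
Tnc: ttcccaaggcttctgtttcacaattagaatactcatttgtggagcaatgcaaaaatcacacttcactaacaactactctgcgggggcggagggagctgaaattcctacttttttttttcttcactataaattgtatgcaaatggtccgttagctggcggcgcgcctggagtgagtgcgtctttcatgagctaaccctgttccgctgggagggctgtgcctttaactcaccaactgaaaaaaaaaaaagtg
Bgn: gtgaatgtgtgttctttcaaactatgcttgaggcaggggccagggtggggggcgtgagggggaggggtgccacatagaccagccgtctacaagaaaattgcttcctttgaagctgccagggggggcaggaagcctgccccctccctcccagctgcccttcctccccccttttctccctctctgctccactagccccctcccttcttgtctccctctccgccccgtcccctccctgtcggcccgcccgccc
Postn: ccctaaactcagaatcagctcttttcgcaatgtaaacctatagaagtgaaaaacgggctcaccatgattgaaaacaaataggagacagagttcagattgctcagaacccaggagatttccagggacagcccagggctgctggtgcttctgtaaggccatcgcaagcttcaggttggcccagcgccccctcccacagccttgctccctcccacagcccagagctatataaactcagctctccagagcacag
Thbs2: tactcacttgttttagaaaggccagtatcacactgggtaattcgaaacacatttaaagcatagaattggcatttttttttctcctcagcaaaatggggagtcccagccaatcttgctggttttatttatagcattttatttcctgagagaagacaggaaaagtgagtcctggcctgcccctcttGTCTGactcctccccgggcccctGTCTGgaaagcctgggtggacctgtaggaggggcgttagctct
The Thbs2 window holds CAGAC at 2 places, which begin 66 and 43 bases before the start, both on the strand opposite to the gene. The Tnc, Bgn and Postn windows shown hold none, but the windows of the other RefSeq starts of Tnc and Postn, not shown, each hold 1, which begins 70 bases before the start in Tnc and 191 bases before it in Postn. RefSeq windows existed for 6 of the 10 genes, 8 windows in all with a further start for Tnc and for Postn, and 5 of the 8 held CAGAC, against 42.2% of 32851 promoter windows of the same length. None of the 8 windows held GGAATG, the Tead motif (12.6% of all windows), or TGANTCA, the AP-1 motif (6.75%), on either strand. A match is a description of letters, and its absence says only that these letters are not in this window. GC content was 44.8% in the Tnc window, 64.4% in that of Bgn, 52% in that of Postn and 46.8% in that of Thbs2.

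Fn1 encodes fibronectin, the fibril-forming glycoprotein that cells bind through integrins. It had 789 and 863 CPM on D2, 1106 and 1141 on D3, and 578 and 650 on D6. On day 7 it had 1125 and 1136 CPM with Gdf11 and 748 and 780 CPM without it. Every D6 library lay below all others, and the D7G libraries lay within the range of the D3 libraries. Fn1 rose on D3 against D2 (0.44 ± 0.05, adjusted p = 1.04e-07), fell on D6 against D3 (-0.87 ± 0.05, 2.80e-12), and rose on D7 against D6 (0.32 ± 0.05, 3.81e-05). D7G was higher than D7 by 0.57 ± 0.05 (9.98e-09), or 1.48-fold. Between D7G and D3 no difference passed the test (95% interval -0.09 to 0.11 log2, adjusted p = 0.880).

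Sparc encodes osteonectin, a collagen- and calcium-binding glycoprotein abundant in basement membranes and mesenchyme, and Sparcl1 encodes hevin, its close relative, best known in the brain and in blood vessels. Sparc had 263 and 287 CPM on D2, 504 and 574 on D3, and 375 and 435 on D6. D7G libraries had 876 and 747 CPM of Sparc, and D7 libraries 603 and 577 CPM. No groups overlapped, with D2 lowest and D7G highest. Sparc rose by 0.97 ± 0.07 on D3 against D2 (adjusted p = 4.77e-10), fell by 0.41 on D6 against D3 (3.51e-05), and was 0.54 ± 0.07 higher on D7 than on D6 (6.80e-06). D7G exceeded D7 by 0.46 ± 0.07 (2.46e-05).

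Sparcl1 ran a different course from its relative. It had 8 and 6 counts in the D2 libraries, 39 and 43 in D3, and 3759 and 3339 in D6. On day 7 there were 1036 and 1078 counts with Gdf11, against 3214 and 3218 without. Hence D2 and D3 libraries were near 0, D6 libraries were the highest, and the D7G libraries lay below both D7 libraries and above both D3 libraries. In CPM the groups averaged 0.230 ± 0.0455 on D2, 1.26 ± 0.0929 on D3 and 114 ± 9.33 on D6, and on day 7, 33.0 ± 0.733 with Gdf11 and 96.5 ± 0.514 without. The increase on D6 against D3 was 90.5-fold (6.50 ± 0.09, adjusted p = 2.34e-20), after one of 2.43 ± 0.33 on D3 against D2 (2.57e-06). Sparcl1 fell on D7 against D6 (-0.24 ± 0.05, 7.85e-04, or -0.16 and 0.0369 without D6 replicate 1). It was the only gene of the 10 called lower in D7G than in D7 (-1.55 ± 0.06, 3.04e-14, a level 0.342 times that of D7). Expressed per kilobase of exon, the level of Sparcl1 made up 0.128 and 0.0888% of the sum of the Sparc and Sparcl1 levels on D2 and 0.305 and 0.297% on D3. The share was 29.4 and 24.2% on D6, and on day 7 it was 4.56 and 5.47% with Gdf11 and 17.1 and 17.8% without.

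Thbs1 and Thbs2 encode thrombospondin-1 and -2, trimeric glycoproteins that inhibit blood vessel growth; thrombospondin-1 is also known to activate latent Tgf-β. Thbs1 had 169 and 209 CPM on D2, 143 and 158 on D3, and 33.5 and 34.2 on D6. D7G libraries had 260 and 298 CPM of Thbs1, and D7 libraries 44.6 and 49.1 CPM. The D7G libraries were higher than all 8 others, and the D6 libraries were lower than all others. Thbs1 was 5.96-fold higher in D7G than in D7 (2.58 ± 0.08, adjusted p = 6.82e-15), after a fall of 4.45-fold on D6 against D3 (-2.15 ± 0.09, 2.64e-14). It rose by 0.47 ± 0.09 on D7 against D6 (6.13e-04). The difference between D3 and D2 (-0.33 ± 0.08, 8.88e-04) was not called without D2 replicate 2 (-0.16, adjusted p = 0.0738).

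Thbs2 had 9.96 and 13.0 CPM on D2, 12.5 and 12.1 on D3, and 2.22 and 2.07 on D6. With Gdf11 the day 7 libraries had 18.8 and 18.7 CPM of Thbs2, and without it 10.5 and 11.3 CPM. The D2, D3 and D7 libraries together spanned 9.96 to 13.0 CPM, with D6 below and D7G above them. Thbs2 rose both without Gdf11 and with it. It was 5.06-fold higher on D7 than on D6 (2.34 ± 0.14, adjusted p = 3.67e-10) and 1.73-fold higher in D7G than in D7 (0.79 ± 0.10, 1.78e-06). On D6 against D3 it fell 5.72-fold (-2.52 ± 0.14, 3.04e-12). D3 and D2 did not differ past the test (0.10 ± 0.10, 0.437, 95% interval -0.12 to 0.31), although leaving out D2 replicate 1 turned the value to -0.084 and leaving out D2 replicate 2 gave 0.30 (0.0280). Per kilobase, the level of Thbs2 was 19.4 and 19.0% of the sum of both thrombospondin levels in D7 libraries, against 5.71 to 8.18% in those of the other 4 groups.

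Tnc encodes tenascin-C, a large hexameric glycoprotein of embryonic mesenchyme and migration routes that weakens the attachment of cells to fibronectin. It had 17.7 and 21.6 CPM on D2, 34.1 and 35.4 on D3, and 4.47 and 5.04 on D6. On day 7 it had 95.6 and 130 CPM with Gdf11 and 6.64 and 7.71 CPM without. No 2 groups overlapped, and the D7G libraries were above the highest value of any other group although they also differed the most between replicates. Tnc was 15.7-fold higher in D7G than in D7 (3.98 ± 0.13, adjusted p = 6.82e-15), rank 24 by size of change among the 18818 tested genes. Before that it rose on D3 against D2 (0.83 ± 0.12, 6.20e-06) and fell 7.31-fold on D6 against D3 (-2.87 ± 0.15, 1.69e-12). The rise on D7 against D6 (0.59 ± 0.20, 0.0224) was not called by limma-voom (adjusted p = 0.108), without the filter (0.0885), or without D6 replicate 1 (0.133) or D7 replicate 2 (0.196).

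Postn encodes periostin and Tgfbi encodes the Tgf-β-induced protein, a pair of secreted proteins built from fasciclin domains that bind integrins. Postn had 11.5 and 14.7 CPM on D2, 40.5 and 38.3 on D3, and 3.28 and 3.74 on D6. D7G libraries had 17.5 and 18.3 CPM of Postn, and D7 libraries 5.92 and 4.00 CPM. The D3 libraries were the highest and the D6 libraries the lowest, and no groups overlapped. Postn rose 3.02-fold on D3 against D2 (1.59 ± 0.10, adjusted p = 6.79e-11), fell 11.2-fold on D6 against D3 (-3.49 ± 0.13, 6.91e-15) and was 3.61-fold higher in D7G than in D7 (1.85 ± 0.13, 7.25e-10). The smaller difference between D7 and D6 (0.50 ± 0.17, 0.0310) rested on single libraries. It was 0.15 (0.599) without D7 replicate 1 and 0.41 (0.176) without D6 replicate 1, and was not called by limma-voom (0.0731), without the filter (0.107) or without either D3 replicate (0.0538 and 0.0534).

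Tgfbi had 12.2 and 11.1 CPM on D2, 5.97 and 5.18 on D3, and 29.2 and 27.5 on D6. On day 7 it had 112 and 130 CPM with Gdf11 and 74.4 and 78.7 CPM without. Each group after D3 was above the one before it, with D7G above D7, and no libraries overlapped between groups. In contrast to its relative Postn, Tgfbi was lowest on D3 (-1.06 ± 0.11 against D2, adjusted p = 9.78e-08) and rose 5.08-fold on D6 against D3 (2.34 ± 0.10, 4.30e-14). It was 2.70-fold higher on D7 than on D6 (1.43 ± 0.07, 1.78e-11) and 1.58-fold higher in D7G than in D7 (0.66 ± 0.06, 3.10e-08).

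Bgn encodes biglycan and Dcn encodes decorin, small proteoglycans that bind collagen and Tgf-β. Bgn had 29.5 and 35.4 CPM on D2, 38.4 and 36.1 on D3, and 1.71 and 2.13 on D6. With Gdf11 the day 7 libraries had 25.8 and 31.4 CPM of Bgn, and without it 2.00 and 2.11 CPM. The D6 and D7 libraries overlapped near 2 CPM, and the D7G libraries lay far above them, overlapping those of D2. Bgn was 13.9-fold higher in D7G than in D7 (3.80 ± 0.14, adjusted p = 2.84e-14), rank 33 by size of change, after a fall of 19.4-fold on D6 against D3 (-4.28 ± 0.14, 7.31e-16). The D7G and D2 levels did not differ past the test (95% interval -0.37 to 0.01 log2, 0.0772), nor did D7 and D6 (0.10 ± 0.23, 0.771). The difference between D3 and D2 (0.20 ± 0.09, 0.0525) was near the threshold. It was called under 13 of 20 alternatives, with adjusted p between 0.00883 and 0.0498 in them.

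Dcn was the least abundant of the 10 genes from D6 on. Its counts were 133 and 137 on D2, 248 and 279 on D3, and 14 and 4 on D6. On day 7 they were 21 and 22 with Gdf11 and 26 and 9 without. All 6 libraries from D6 on were at or below 26 counts, with overlap between D6, D7 and D7G, and the 4 earlier libraries were at or above 133. Dcn rose on D3 against D2 (0.87 ± 0.17, adjusted p = 1.82e-04) and fell 27.6-fold on D6 against D3 (-4.78 ± 0.29, 1.04e-11). Unlike Bgn it was not called in D7G against D7 (0.35 ± 0.41, 0.536, 95% interval -0.51 to 1.21), where the value became -0.24 without D7 replicate 2. The difference between D7 and D6 (0.85 ± 0.50, 0.206) was -0.14 without D7 replicate 1, 1.99 (0.0418) without D6 replicate 1 and 1.38 (0.0397) without D7 replicate 2.

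After 24 h with Gdf11 most of these genes were higher than in untreated cells of the same day. In D7G against D7, 8 of the 10 genes rose, Sparcl1 fell and Dcn was not called, against 40.7% of all tested genes called in either direction (22.5% higher and 18.2% lower). The median log2 change was 0.72 over the 10 genes and 0.02 over all tested genes. Tnc, Bgn, Thbs1 and Postn rose at least 2-fold, a size that 4.25% of tested genes reached upwards. Libraries of D7G and D7 did not overlap for 9 genes, against 67.8% of tested genes. The 9 calls were made under all 20 alternatives. In the authors' deposited table, which gives log2 fold changes against D2, the D7G value minus the D7 value differed from the present one by 0.159 for Dcn and by at most 0.0323 for the other 9 genes.

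On D6 most of these genes were below their D3 levels. All 10 genes were called in D6 against D3, 8 lower and Sparcl1 and Tgfbi higher, where 65.7% of tested genes were called (32.4% higher and 33.3% lower). The median was -2.34 over the 10 genes and -0.01 over all tested genes. Tnc, Thbs1, Thbs2, Bgn, Dcn and Postn fell at least 2-fold, as 14.1% of tested genes did. Fn1 fell 1.83-fold and Sparc 1.33-fold. No libraries of the groups overlapped for any of the 10 genes, against 82.7% of tested genes. The same 10 calls were made under every alternative tried.

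The other steps of the untreated course gave rises for most of the genes. On D3 against D2, 6 genes rose, Thbs1 and Tgfbi fell, and Thbs2 and Bgn were not called, with 58.5% of tested genes called (29.6% higher and 28.9% lower). The median was 0.63, against 0.00046 over all tested genes, and the groups did not overlap for 9 genes, against 79.5% of tested genes. The largest rises were those of Sparcl1 and Postn. On D7 against D6, 7 genes rose, Sparcl1 fell, and Bgn and Dcn were not called, with 36% of tested genes called (20.5% higher and 15.6% lower). The median was 0.52, against 0.04 over all tested genes, and the groups did not overlap for 8 genes, against 66.4% of tested genes. Thbs2 and Tgfbi made the larger rises there, while the calls of Tnc and Postn were not kept under every alternative, as given above.

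Set against D6, the day on which Gdf11 was added, D7G and D7 share the D6 libraries as their baseline. In D7G against D6, 9 genes rose and Sparcl1 fell, with 52.8% of tested genes called (30.6% higher and 22.2% lower), and the groups did not overlap for any of the 10 genes, against 74.4% of tested genes. Tnc was 23.8-fold and Bgn 14.9-fold higher, Thbs2 8.74-fold and Thbs1 8.25-fold higher. Without Gdf11, in D7 against D6, the corresponding folds were 1.51 for Tnc, 1.07 for Bgn (not called), 5.06 for Thbs2 and 1.38 for Thbs1. Tgfbi was 4.27-fold higher in D7G against D6 and 2.70-fold higher in D7 against D6. The call of Dcn in D7G against D6 (1.20 ± 0.48, adjusted p = 0.0420) was lost under 9 of 20 alternatives. It was 0.57 (0.363) without D6 replicate 2 and 2.34 (0.00723) without D6 replicate 1.

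**Figure D2:**
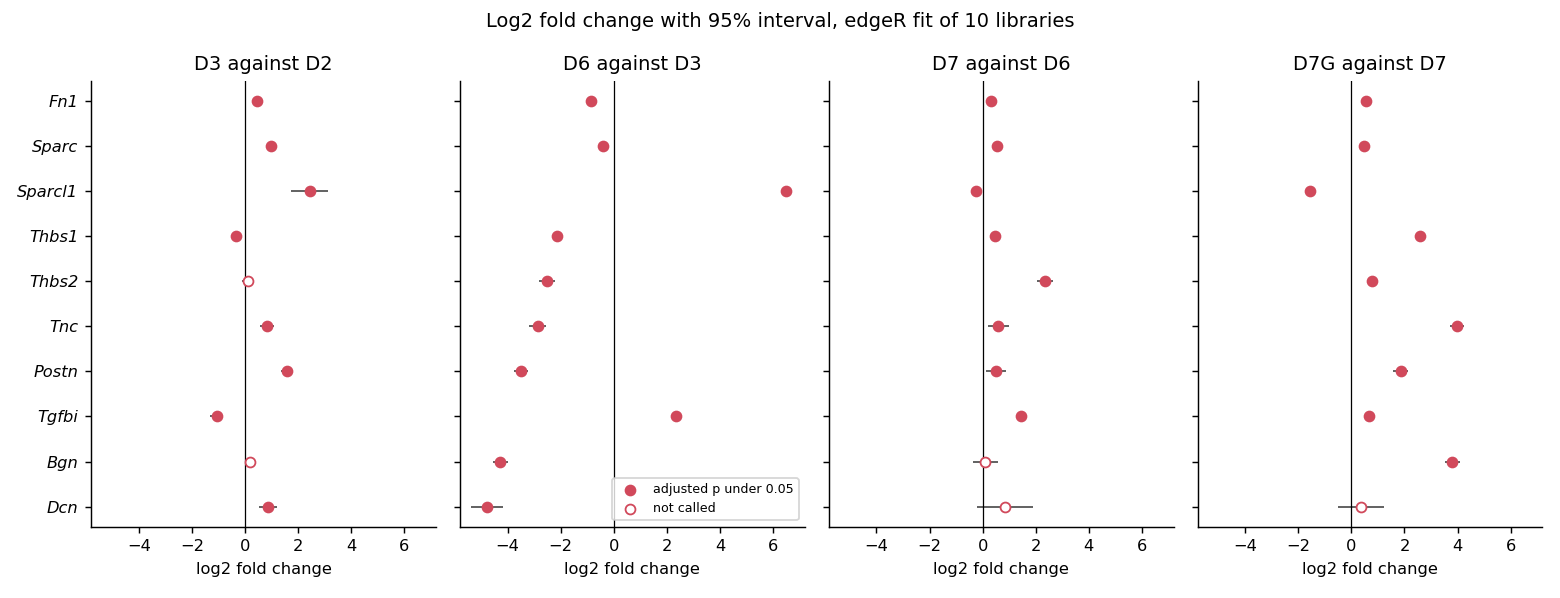
Log2 fold change (x axis) of each gene in 4 comparisons from the edgeR fit of 10 libraries, with 95% intervals as bars; filled points have an adjusted p under 0.05. In D6 against D3, Sparcl1 (6.50) and Tgfbi (2.34) are the only genes right of 0, and in D7G against D7, Sparcl1 (-1.55) is the only gene left of it.

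Neighbours in the order of group means mostly differed past the test. For Thbs2 the D7 and D2 levels did not (adjusted p = 0.515), nor did D3 and D2 (0.437). For Bgn the test was missed between D7 and D6 (0.771), between D7G and D2 (0.0772) and between D3 and D2 (0.0525). For Dcn it was missed between D7 and D6 (0.206) and between D7G and D7 (0.536), and for Sparc between D7 and D3 (0.111). For Fn1 the D7G and D3 levels at the top of the order did not differ past it (0.880). For Sparcl1 and Tgfbi each neighbouring pair was called. The same held for Tnc, Thbs1 and Postn, but the calls between D7 and D6 for Tnc and Postn and between D3 and D2 for Thbs1 were lost when single libraries were left out, as given above.

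Levels of different genes were compared per kilobase of exon, as CPM per kb. Sparc was the highest and Fn1 the next in all 5 groups, with 214 and 96.7 CPM per kb in D7G and 107 and 52.5 CPM per kb on D6. The next after them was Thbs1 on D2, D3 and in D7G (31.1, 24.8 and 46.0 CPM per kb), and Sparcl1 on D6 and D7 (38.9 and 32.9 CPM per kb). Dcn was the lowest from D6 on (0.0496 CPM per kb on D6). These places were the same with the exon length of the basic annotation in place of that in the files, but the full order of the 10 genes was then identical in 0 of 5 groups, because for some genes the lengths differ.

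Other matricellular genes were described from a list of 18, of which 16 were tested. After Gdf11, 9 were higher in D7G than in D7 and 1 was lower, with a median log2 change of 0.55. Wisp1 (also called Ccn4, a Wnt-induced secreted protein) rose by 1.04 ± 0.13 (9.48 CPM in D7G and 4.59 CPM in D7). Spock1 and Spock2, testican proteoglycan genes of the Sparc family, rose by 0.87 ± 0.12 and 0.85 ± 0.06, while Smoc1, a further calcium-binding relative of Sparc, fell by 0.96. At the step to D6, 7 were higher and 7 lower on D6 than on D3. Spp1 (osteopontin, -2.11 ± 0.09), Comp (cartilage oligomeric matrix protein, a thrombospondin relative, -2.59 ± 0.39) and Wisp1 (-2.32 ± 0.17) fell and Smoc1 rose (1.78 ± 0.06). D7 against D6 had 8 rises and 1 fall, among them Wisp1 (1.48 ± 0.18), Spock1 (1.24 ± 0.15) and Ctgf (0.98 ± 0.07). D3 against D2 had 4 of each, such as a rise of Smoc2 (1.41 ± 0.26) and falls of Thbs4 (-1.61 ± 0.17) and Ctgf (-1.08 ± 0.07).

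Of 20 other matrix glycoproteins, all tested, 10 rose in D7G against D7 and 2 fell, with a median of 0.50. The microfibril genes Mfap4 (33.8 CPM in D7G and 5.61 CPM in D7, 2.59 ± 0.08) and Mfap2 (1.86 ± 0.08) rose the most, together with Emilin1, an elastin-associated glycoprotein (1.36 ± 0.07). Vtn, encoding vitronectin, fell (-1.75 ± 0.27, 0.844 CPM in D7G and 2.84 CPM in D7). On D6 against D3, 7 rose and 11 fell. Fbn2, the embryonic fibrillin gene, rose by 2.82 ± 0.07, and Ltbp2 and Fbln5 fell by 4.00 and 2.58. Vtn averaged 3.74 CPM on D6, against 0.0154 CPM on D3. D7 against D6 had 12 rises and 2 falls, the largest rises being those of Fbln5 (1.59 ± 0.24) and Eln, the elastin gene (1.19 ± 0.27). D3 against D2 had 10 rises and 5 falls, with rises of 1.41 ± 0.12 for Efemp1, 0.83 ± 0.05 for Fbln1 and 0.77 ± 0.07 for Fbn1, another fibrillin gene.

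Among 15 further proteoglycan genes only 10 passed the filter. In D7G against D7, 5 rose and the other 5 were not called, with a median of 0.28, or 0.32 without Aspn, which had 1 count in the 4 libraries. Lum, encoding lumican of the same family as Bgn and Dcn, rose by 3.75 ± 0.21 (15.2 CPM in D7G and 1.12 CPM in D7), and Podn, Vcan and Agrn rose by 0.79 ± 0.16, 0.39 ± 0.05 and 0.32 ± 0.04. On D6 against D3, 9 of the 10 fell and 1 rose, with a median of -1.54. Podn (podocan, -1.99 ± 0.14), Bcan (brevican, -3.29 ± 0.30) and Ogn (osteoglycin, -5.12 ± 0.43) fell. Ogn had 3 and 2 counts on D6, against 106 and 85 on D3. Aspn (asporin) had 0 counts in both D6 libraries, against 51 and 28 on D3. D7 against D6 had 2 rises (Lum 2.64 ± 0.52, Ncan 1.07 ± 0.18) and 1 fall (Vcan, -0.30 ± 0.05). Lum had only 7 and 4 counts on D6, and 54 and 21 on D7. D3 against D2 had 3 rises, with Vcan, the versican gene, at 2.29 ± 0.06 and Podn at 2.11 ± 0.15, and 3 falls, with Acan at -2.24 ± 0.15 and Ncan at -1.46 ± 0.12.

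Of 12 receptor genes for these matrix proteins (integrins, syndecan and others), all tested, 7 rose in D7G against D7 and 1 fell, with a median of 0.52. Itgav and Itgb3, which form the vitronectin receptor that also binds fibronectin and osteopontin, rose by 0.87 ± 0.05 and 1.23 ± 0.17, and Itgb5 by 0.60 ± 0.05. Itga8, whose product binds nephronectin and fibronectin, fell (-0.97 ± 0.09). On D6 against D3, 3 rose and 6 fell, with Itga8 at 2.23 ± 0.13, Itga9 at 1.28 ± 0.07 and Sdc4, a heparan sulphate syndecan, at -1.45 ± 0.07. D7 against D6 had 6 rises and 4 falls, with Itga8 again highest (0.82 ± 0.09). D3 against D2 had 5 rises and 2 falls, with Cd36, a thrombospondin receptor, at 2.43 ± 0.37 and Cd47, another one, at 0.48 ± 0.08. Cd36 had only 7 and 5 counts on D2, and 32 and 38 on D3.

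**Figure D3:**
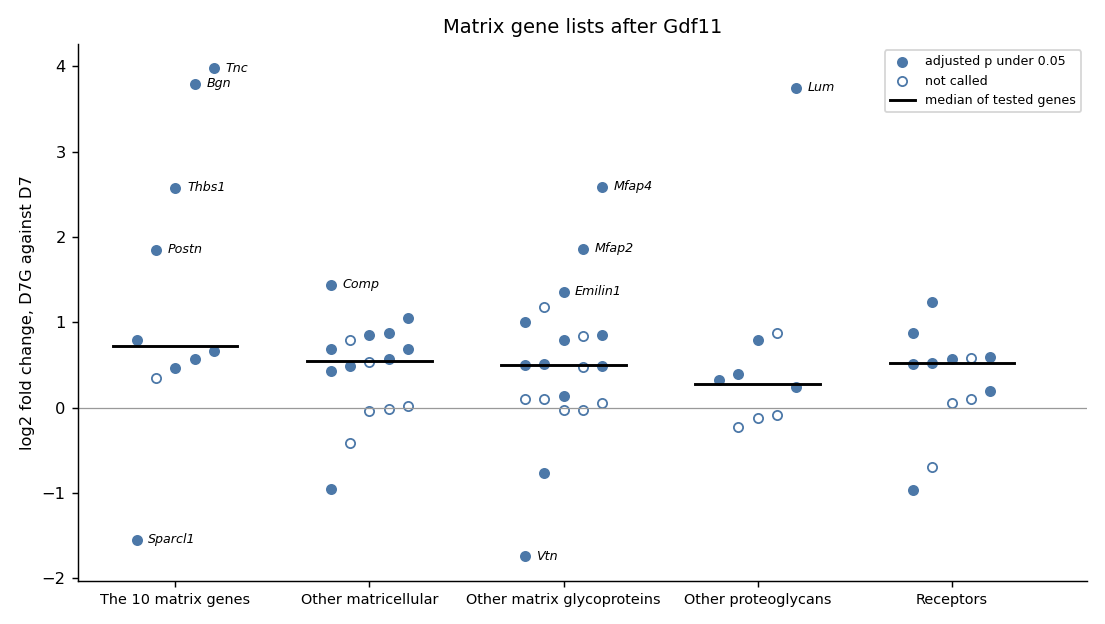
Log2 fold change in D7G against D7 (y axis) of each tested gene of 5 lists (points; filled with an adjusted p under 0.05) with the list's median (line). Tnc, Bgn and Lum are above 3.7, the medians of all lists lie between 0.28 and 0.72, and Aspn, with 1 count in the 4 libraries, is counted in its median but not drawn.

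Because the ESCs had been kept on embryo fibroblasts, and fibroblasts express many of these genes, 12 embryo fibroblast markers were measured in every group. Their summed level was 150 to 186 CPM on D2, 304 to 305 on D3 and 275 to 280 on D6. On day 7 it was 1119 to 1269 CPM with Gdf11 and 401 to 425 CPM without. Of the 12 markers, 11 had counts on D2 and D6 and 12 in the other groups, with Dpt at 0 on D2 and S100a4 at 0 on D6. In D7G against D7, 9 of 10 tested markers rose and Fap fell (-0.48 ± 0.13), with a median of 1.72. Col1a1 averaged 241 CPM in D7G and 27.3 CPM in D7, and Col1a2 86.7 CPM in D7G and 16.4 CPM in D7. Lum is on this list as well as among the proteoglycans.

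The fibroblast markers differed among themselves. Col1a1 averaged 53.4 CPM on D2, 98.1 on D3 and 8.17 on D6, and Col1a2 averaged 59.9, 108 and 5.38 CPM on these days, so that both, like Tnc, Bgn and Postn, were lower on D6 than on D3. Thy1 averaged 9.20 CPM on D2, 7.79 on D3 and 0.387 on D6, and on day 7 it was at 1.11 CPM with Gdf11 and 0.510 CPM without. In contrast, Col3a1 averaged 22.2 CPM on D2, 27.5 on D3 and 173 on D6, and on day 7, 659 CPM with Gdf11 and 261 CPM without. Pdgfra and Pdgfrb, receptor genes of mesenchyme, were likewise higher on D6 (52.5 and 29.2 CPM) than on D3 (40.8 and 15.2 CPM). In D2 replicate 2, 8 of the 10 matrix genes had more CPM than in replicate 1 (ratios of 1.04 to 1.31 among these), and the summed fibroblast markers were 186 CPM there and 150 CPM in replicate 1. In D7G only Thbs2 (ratio 0.995) and Sparc (0.852) were lower in replicate 2. The summed fibroblast markers there were 1269 CPM in D7G replicate 2 and 1119 CPM in replicate 1. The share of all tested genes that were higher in replicate 2 was not computed, so these counts have no background beside them. The part of fibroblasts in the levels of Tnc, Thbs1, Bgn, Postn and the others was not tested.

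**Figure D4:**
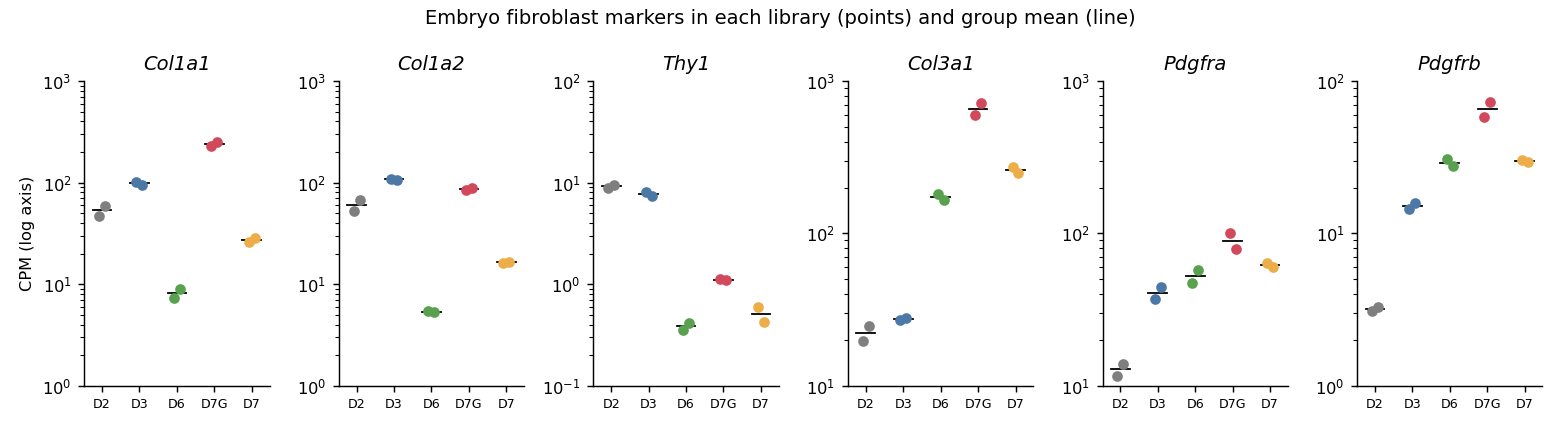
CPM (log axes, which differ between panels) of 6 of the 12 embryo fibroblast markers in each library (points, n = 2 per group) with the group mean (line). The means of Col1a1, Col1a2 and Thy1 are lowest on D6, while Col3a1, Pdgfra and Pdgfrb are higher on D6 than on D3, and all 6 are higher in D7G than in D7.

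Markers of other cell types also moved with Gdf11. The sum over 8 lateral plate and limb mesenchyme markers was 252 to 273 CPM in D7G libraries, against 74.7 to 78.2 CPM in D7 libraries, and Prrx1 alone averaged 206 CPM in D7G and 48.9 CPM in D7. Here 5 of 7 tested markers rose and the other 2 were not called. The 12 parietal and visceral endoderm markers summed to 2745 to 3497 CPM in D7G and 2341 to 2484 CPM in D7, with 9 rises. Most of this sum came from the basement membrane genes Col4a1 and Lamb1. Col4a1 averaged 2298 CPM in D7G and 1797 CPM in D7, and Lamb1 579 CPM in D7G and 424 CPM in D7. The 7 endothelial markers summed to 130 to 175 CPM in D7G and 79.6 to 81.8 CPM in D7, with 1 rise (Flt1, 1.07 ± 0.09) among 6 tested. Radial glia and astrocyte markers summed to 1014 to 1112 CPM in D7G and 785 to 802 CPM in D7, with 4 rises and 2 falls among 7 tested. Vim, which mesenchyme also expresses, averaged 692 CPM in D7G and 424 CPM in D7, while Hes5 (-0.91 ± 0.08, 15.5 CPM in D7G and 29.1 CPM in D7) and Slc1a3 (-0.69 ± 0.06, 28.1 CPM in D7G and 45.4 CPM in D7) fell. Of 6 epiblast markers 4 rose (Fgf5 1.16 ± 0.30, Otx2 1.07 ± 0.29, Pou5f1 0.33 ± 0.07 and Nanog 0.33 ± 0.08) and 2 were not called. The sum of the 6 was 310 to 352 CPM in D7G and 271 to 278 CPM in D7. Fgf5 and Otx2 stayed low, at 1.11 and 1.27 CPM in D7G and 0.496 and 0.601 CPM in D7, against 19.9 and 36.1 CPM on D2. Of 10 paraxial mesoderm markers 2 rose and 3 fell, and of 9 neuromesodermal progenitor markers 2 rose and 5 fell.

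Marker lists moved at the step to D6 as well. In D6 against D3, 7 of 10 paraxial mesoderm markers rose and 2 fell, and their sum was 119 to 148 CPM on D6, against 25.8 to 28.5 CPM on D3. Lateral plate and limb mesenchyme markers summed to 52.6 to 56.2 CPM on D6 and 16.6 to 18.0 CPM on D3, with 2 rises (Pitx1 and Prrx1) and 3 falls among 7 tested. Of 6 tested endothelial markers 1 rose and 4 fell, with a median of -0.85, although their sum was 53.3 to 60.1 CPM on D6 and 47.3 to 47.6 CPM on D3, with Flt1 at 40.1 CPM on D6 and 20.5 CPM on D3. Of 9 neuromesodermal progenitor markers 1 rose and 8 fell, and of 6 epiblast markers 1 rose and 4 fell. The endoderm list had 2 rises and 4 falls among 12, and the radial glia and astrocyte list 4 rises and 1 fall among 7. The part of these cell types in the matrix genes was not tested at either step.

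Across the 10 libraries, which share their groups and are not independent points, the log2 CPM of Thbs1 and Bgn correlated at 0.946, of Tnc and Thbs1 at 0.933, and of Tnc and Fn1 at 0.921 (Pearson's r, n = 10, a description). Sparcl1 ran against Dcn (-0.906) and Bgn (-0.797). Among 11598 candidate genes with a group mean of at least 5 CPM, the closest to Tnc were Col6a2 (0.987), Mmp14 (0.985) and Tes (0.979), and the closest to Thbs1 were Col7a1 (0.995), Emp1 (0.991) and Furin (0.990). For Bgn they were L1cam (0.990), Cnn2 (0.987) and Inhba (0.986), for Fn1 Nid1 (0.993), Shisa5 (0.989) and Anxa2 (0.989), and for Sparc Tinagl1 (0.993), Lcp1 (0.991) and Cd44 (0.988). Sparcl1 was closest to Thsd4, Adamts1 and Ndn (0.999, 0.998 and 0.998), and Tgfbi to Sema4g, Katnal1 and Phf21b (0.994, 0.994 and 0.991). For Thbs2 they were Osbp, Ncoa1 and Lpin1 (0.975, 0.975 and 0.974), for Postn Ahnak2, Zfp654 and Exoc6b (0.986, 0.985 and 0.985), and for Dcn Rims1, Mcoln3 and Exoc8 (0.979, 0.978 and 0.977). These coefficients measure the shape of the course over groups and not its size. Col6a2 averaged 24.9 CPM in D7G and 3.27 CPM in D7, whereas Exoc8 spanned 16.1 to 24.0 CPM over all groups.

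The genes lie on 10 chromosomes (mm10, from the files): Fn1 at chr1:71585520-71653200, Sparc at chr11:55394500-55423183, Sparcl1 at chr5:104079111-104113733, Tnc at chr4:63959785-64047015 and Thbs2 at chr17:14665500-14694262, all on the minus strand. On the plus strand are Thbs1 at chr2:118111876-118127133, Postn at chr3:54361109-54391037, Tgfbi at chr13:56609523-56639562, Bgn at chrX:73483602-73495933 and Dcn at chr10:97479609-97518143. Exons of 3 genes overlap an antisense gene (Tnc with 8030451A03Rik, Thbs1 with Gm29233 and Fn1 with Apol7d), over at most 3.43% of the gene's exon length. The antisense neighbours had at most 47 counts in a library. Whether counting used strand is not given in the sources used here.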

How the data were processed

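RNA was sequenced from 10 libraries of 5 groups of differentiating mouse ES-Bruce4 cells, 2 per group. The authors deposited whole-number counts per gene symbol, which were used as deposited, a second table of counts per Ensembl gene, used as an alternative, and a table of log2 fold changes against D2 with p-values and false discovery rates (q-values), quoted only where named as the authors' deposited table. Per the submitters' processing notes, mm10 was the build, and the tools were HISAT2 2.1.0, STAR, featureCounts 1.6.3 and limma; which of them made which table, the counting options and the use of strand are not given in the sources used here. No column belonged to other samples (0 such columns).

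Counts were analysed with R 4.3.3 and edgeR 4.0.16: TMM scaling, filterByExpr (18818 genes kept), 1 quasi-likelihood model over the 10 libraries with a coefficient for each group (5 residual and 14.3 prior degrees of freedom), and Benjamini-Hochberg adjustment over all tested genes of a comparison. SEs were derived from log2 fold change and F. The median SE was 0.09 on the log2 scale, and intervals are 95%. The procedure was also run on simulated data in which few genes changed and the spread was the one estimated from these libraries. Such data cannot check TMM where many genes change, nor the estimate of the spread. Alternatives were DESeq2 1.42.0, limma-voom (limma 3.58.1), 3 other scalings, 2 other filters, the Ensembl table, only the libraries compared, a replicate block, and each library left out. Counts hold PCR copies, since no molecular identifiers are mentioned.

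All 10 genes are named in every group. From each other list up to 4 called genes per comparison with the largest change and at least 1 CPM in a group are named. A group with at most 1 count over its libraries is given by its levels or counts. For each gene the 3 others with the highest Pearson's r of log2 CPM (prior count 2) are named, leaving out predicted and clone names. The genes, lists and tests were chosen with earlier results of these data known. Promoter sequences are RefSeq's (GRCm38.p6). Lengths and overlaps come from the files and from GENCODE vM21, in which 9 of the 10 genes have the span and exon length of the files (Thbs2 differs).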

Additional observations from a re-analysis of the deposited data

How the results depend on the processing

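Each comparison was recomputed under 20 alternatives. In D6 against D3 (10 of 10 genes called) and D7G against D7 (9 of 10) no call changed under any of them. The number of genes called was 8 to 9 in D3 against D2, 6 to 8 in D7 against D6 and 9 to 10 in D7G against D6. With a library left out, the count of genes lower in D3 against D2 ranged from 1 to 2, being 1 without D2 replicate 2. Over the log2 fold changes of the 10 genes, 488 values of the alternatives that keep all libraries had the same direction and call, 6 gained a call, 6 lost one and 0 changed direction. With a library left out, these numbers were 472, 10, 14 and 4. The 4 changes of direction were in values that were not called. With a library left out, Thbs2 in D3 against D2 ranged from -0.084 (without D2 replicate 1) to 0.30, Bgn in D7 against D6 from -0.053 (without D6 replicate 1) to 0.26, Dcn in D7 against D6 from -0.14 (without D7 replicate 1) to 1.99, and Dcn in D7G against D7 from -0.24 (without D7 replicate 2) to 1.28. The cause was not tested. A group reduced to 1 library is assumed to vary like the others.

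Over all tested genes, the deviations of same-numbered replicates from the group means correlated at -0.042 to 0.049 over the 10 pairs of groups. A value over all genes cannot exclude a shared replicate effect on single genes. Tnc, Thbs1 and Fn1 were higher in replicate 2 in every group (ratios of 1.04 to 1.36, 1.02 to 1.24 and 1.01 to 1.13). Every other gene of the 10 was lower in replicate 2 in some group. How many of all tested genes were higher in replicate 2 in every group was not counted. A term for the replicate number (replicate block) added 1 call among the 10 genes, Bgn in D3 against D2 (0.21, adjusted p = 0.0215), and changed no other. Dcn had only 4 to 26 counts per library from D6 on, with 14 and 4 in D6 and 26 and 9 in D7, so its comparisons there have wide intervals. TMM rests on unchanged genes being the majority, and 36 to 65.7% of tested genes were called.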
